A study of Mus musculus with 9 samples.

Results

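The genes described here encode inhibitors of proteases: serpins, cystatins, and small inhibitors built from WAP, Kunitz or Kazal domains. They were taken from the deposited expression table by symbol, as every row whose name starts with Serpin, Cst, Stf, Wfdc, Spint, Spink or Tfpi, or reads Slpi, A2m, Pi15 or Pi16. The pattern found 41 of the 13336 genes. Of these, 37 are protease inhibitors or members of their families (24 serpins and 13 others), and 4 (Cstf1, Cstf2, Cstf2t and Cstf3) are subunits of the cleavage stimulation factor of mRNA 3' end formation, which share only the letters of their names. The same pattern matches 131 genes of the GENCODE M21 mouse annotation. Those without a row, A2m, Pi16 and the Stfa stefins among them, are not analysed here.

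The study measured mRNA in 9 libraries of cultured mouse myoepithelial cells, the contractile basal cells that surround airway glands. The 5 Lef1KI libraries came from ACTA2-CreERT2:Lef-1KI+/+ mice, which switch on the Wnt-pathway transcription factor Lef1, and the 4 WT libraries from ACTA2-CreERT2:ROSA-TG mice. In both lines a tamoxifen-dependent Cre is driven by the promoter of ACTA2, a smooth muscle actin gene. Each library was a pool of tracheal gland cells from 3 to 5 mice that had received tamoxifen on each of 5 days. All cells were at passage 1, on plastic coated with laminin from 804G cells, in a modified airway medium with 10 µM Y-27632 and 1 µM each of DMH-1, A83-01 and CHIR 99021. The WT cells were sorted as GFP+ and the Lef1KI cells as GFP-, so sort gate and genotype change together and cannot be told apart in any comparison below. For the mice, age and genetic background were not given in the sources used here. Libraries are named by the letters of the deposited columns, Lef1KI A, B, C, D and E and WT A, B, E and D, and values per library are given in that order.

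Levels are in TPM, which corrects reads for transcript length and gives every library the same sum. A difference is the Lef1KI mean less the WT mean of log2(TPM + 1), with its standard error, and understates the change of genes near 0 TPM. The deposited genes have a mean of at least 3 SD in at least 1 group. A low gene that met this only through the group where it is high was selected in part for that difference. Its test is therefore no support for a difference, and such genes are pointed out below. A gene is said to have risen or fallen where the adjusted p of limma was under 0.05 after Benjamini-Hochberg adjustment over all 13336 genes. Lef1 itself, the targeted gene, stood at 210.1, 312, 309, 139 and 166 TPM in the Lef1KI libraries and at 0.55, 0.46, 0.4 and 0.38 TPM in the WT libraries, a difference of 7.23 (adjusted p = 5.2e-08). The exact permutation test over the 126 splits gave p = 0.0159, made two-sided by doubling the share of splits in a single direction. This is the smallest value that form of the test allows. All 8 basal cell markers looked for were in the table, with summed levels of 20494 to 24580 TPM in Lef1KI and 15731 to 22611 TPM in WT libraries. Of 8 contractile markers, 6 had a row, with sums of 146 to 387 and 220.2 to 417 TPM. Between 11465 and 12135 genes reached 1 TPM in a library. Across all genes the median difference was 0.14. Of all genes, 898 rose (6.73%) and 165 fell (1.24%). When each library was centred on its median, 605 rose and 332 fell.

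A serpin is a single-use trap. It offers a loop, the reactive centre loop, as bait, and when the protease cuts the loop, the serpin changes shape and holds the protease bound and distorted. The residues of that loop largely set which protease is caught. Clade A serpins are mostly secreted and include the antitrypsin and antichymotrypsin families. Clade B serpins lack a classical signal peptide, act mostly inside cells or at their surface, and many are expressed in squamous epithelia. Cystatins block papain-like cysteine proteases such as the cathepsins. Kunitz, Kazal and WAP inhibitors fit a rigid loop into the active site of serine proteases. In the airway these inhibitors are known for holding back neutrophil proteases and the proteases of shedding epithelium.

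All 7 clade A serpins in the table were Serpina3 genes, neighbours on chromosome 12, and their loop sequences are shown first. Mice carry a cluster of Serpina3 genes where humans have the single antichymotrypsin gene SERPINA3. The lines below give the loop-coding sequence of the 6 paralogs that have a coding transcript, read from the mm10 genome. Each runs 5' to 3' on the coding strand, with the conserved hinge and distal flanks in lower case and the variable bait stretch between them in capitals.
Serpina3c (chr12:104147304-104147390, minus strand): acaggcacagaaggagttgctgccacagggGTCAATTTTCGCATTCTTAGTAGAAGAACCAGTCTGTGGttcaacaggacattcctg
Serpina3f (chr12:104220242-104220340, plus strand): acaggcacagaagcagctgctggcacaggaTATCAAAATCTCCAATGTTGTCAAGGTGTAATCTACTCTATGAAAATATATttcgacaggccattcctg
Serpina3g (chr12:104241069-104241164, plus strand): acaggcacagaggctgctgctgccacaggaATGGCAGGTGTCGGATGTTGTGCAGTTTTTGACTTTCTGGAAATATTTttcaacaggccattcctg
Serpina3i (chr12:104268477-104268572, plus strand): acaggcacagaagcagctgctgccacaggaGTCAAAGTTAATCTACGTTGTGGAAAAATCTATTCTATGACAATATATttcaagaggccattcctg
Serpina3m (chr12:104393766-104393861, plus strand): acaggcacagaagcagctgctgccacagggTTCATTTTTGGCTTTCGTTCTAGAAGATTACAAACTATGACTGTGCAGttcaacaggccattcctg
Serpina3n (chr12:104413445-104413540, plus strand): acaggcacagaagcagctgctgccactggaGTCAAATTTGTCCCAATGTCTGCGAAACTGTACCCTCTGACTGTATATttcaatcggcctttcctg
The capital stretch is 48 bases long in Serpina3g, Serpina3i, Serpina3m and Serpina3n, 39 in Serpina3c and 51 in Serpina3f. Over those 48 bases Serpina3g has the same base as Serpina3n at 22 positions, Serpina3m at 25 and Serpina3i at 30. Over the 48 flanking bases the same 3 genes match Serpina3n at 42, 43 and 44. The stretches were located by searching the proteins for set residues of the flanks. A close match of the flanks was thus largely fixed by that search, and their contrast with the bait stretch is no test. The bases of the bait stretch were not set this way.

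Similar sequence bears on how reads are counted. Among the 40 members with a coding transcript, 16 of 274 pairs within a family were at least 70% identical in protein. The closest were Serpinb1a and Serpinb1b at 86.5% (coding sequence 90.6%), then Serpina3f and Serpina3i at 86.0% (91.4%). Serpinb6a and Serpinb6b followed at 80.9%, and Serpina3c and Serpina3m at 80.3%. Short stretches are shared outright by fewer. Of all windows of 50 bases in the transcript, 19.1% recurred in a transcript of another gene for Serpina3m (257 of 307 such windows in Serpina3k, which has no row), 16.0% for Serpina3g, 15.4% for Serpina3i, 10.7% for Serpina3f, 6.9% for Serpina3n and 4.25% for Serpina3c. Serpina3h, annotated as a transcribed pseudogene, was not among the coding transcripts but shared 198 windows with Serpina3i and 152 with Serpina3g. Among clade B serpins the share was 10.4% for Serpinb6c and at most 3.52% for the rest, and 25 of the 40 members shared none. One coding transcript per gene was searched against all transcripts of other genes, so a count holds for that transcript. Read length was not given in the sources used here. Levels of single Serpina3 paralogs are therefore uncertain where RSEM had to split reads, and their sum is given beside them.

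No member fell on the deposited scale. Of the 41 genes, 12 rose (29.3%, where 6.73% of all genes rose and 7.97% changed in either direction): the 7 Serpina3 genes, Serping1, Serpinf1, Tfpi, Tfpi2 and Pi15. Tfpi2 met the authors' filter only through Lef1KI, where it is high. The Lef1KI and WT libraries did not overlap for 11 members, all with Lef1KI above, where 10.0% of all genes had that arrangement and 1.89% the opposite one. Of the 37 inhibitors, 21 had a positive and 16 a negative difference, with a median of 0.17 against 0.14 for all genes. Without the clade A serpins, 5 of the other 30 inhibitors rose and the median was -0.04. The plot of differences by class shows the clade A genes to the right of nearly every other member. Under median centring 11 members rose and 2 fell (Serpinb8 and Spint1), and under trimmed-mean scaling 11 rose and Serpinb8 fell. Leaving out 1 library at a time gave between 9 changed members (without WT B) and 15 (without Lef1KI A).

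**Figure D1:**
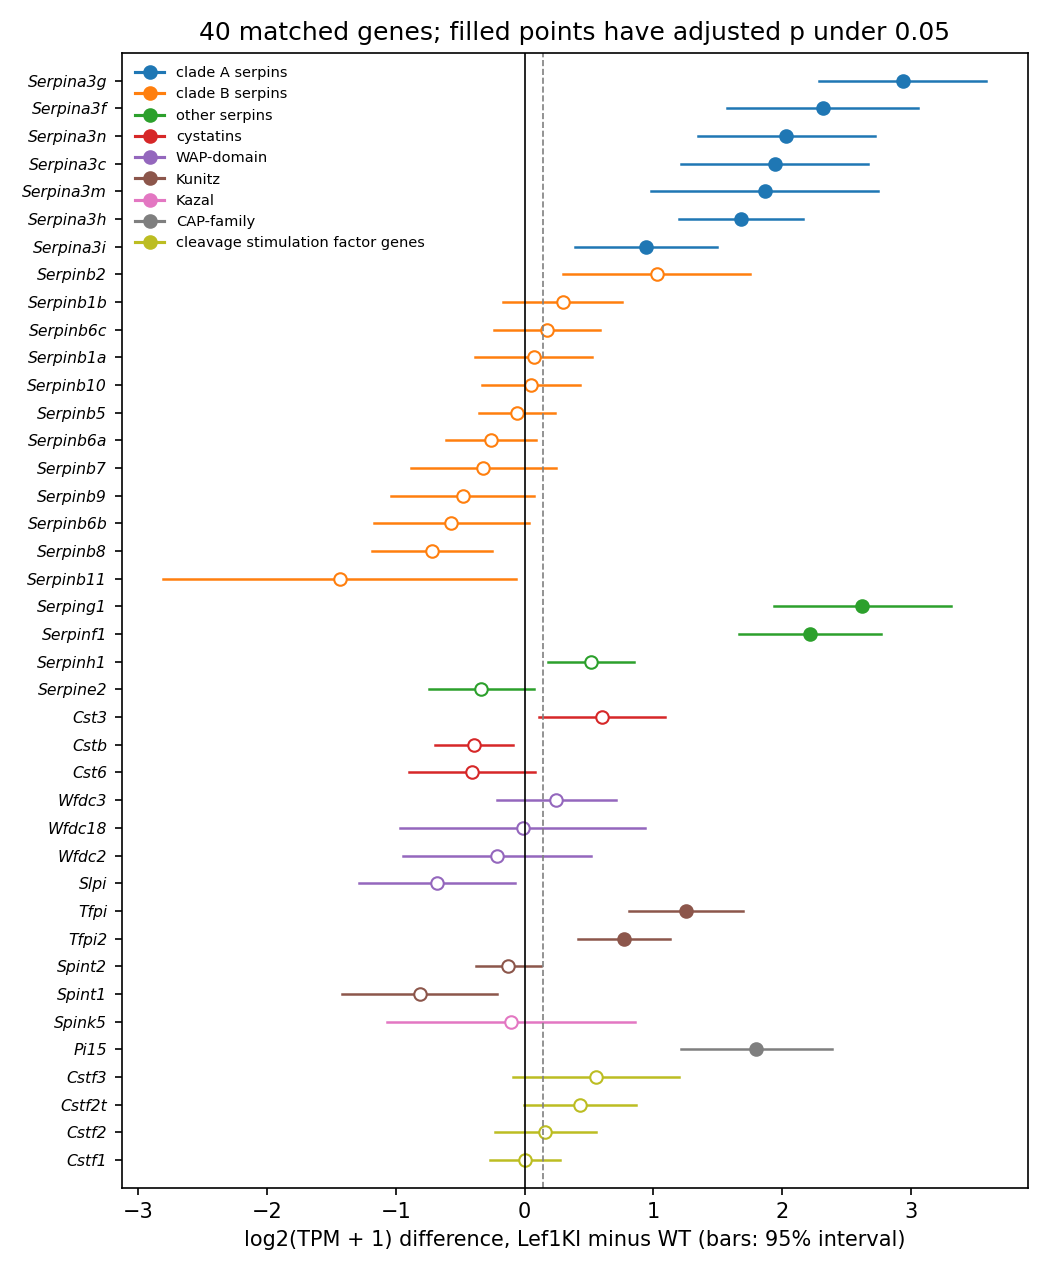
Difference of 40 of the 41 matched genes, Lef1KI minus WT in log2(TPM + 1) units on the horizontal axis, with bars for the 95% confidence interval of limma and genes grouped by class. Filled points passed the adjusted threshold, and the dashed line is the median difference of all genes, 0.14; the 7 Serpina3 genes lie between 0.94 and 2.94, and the 12 clade B serpins spread over both sides of 0.

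Serpina3n carried most of the clade A signal. It is a secreted inhibitor of chymotrypsin-like proteases that is known to rise in inflamed tissue. Its level was 1755, 1050.5, 1970.5, 1920.3 and 669.8 TPM in the Lef1KI libraries and 243, 327, 364 and 419 TPM in the WT libraries (chr12:104406729-104414329, plus strand). Every Lef1KI library lay above every WT library, with Lef1KI E nearest to them. The mean was 1473 ± 581 TPM (SD, n = 5) against 338 ± 73.9 TPM (SD, n = 4), a ratio of 4.35, and the difference was 2.03 ± 0.31 (adjusted p = 0.00316).

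Serpina3g, which has been described in T cells and as an inhibitor of lysosomal cysteine proteases, showed the largest difference of all members on the log2(TPM + 1) scale. With a pseudocount of 0.1 Serpina3c exceeded it (3.15 against 3.04). It stood at 98.7, 58.9, 140.2, 111 and 46.7 TPM in the Lef1KI libraries and at 10.9, 9.92, 7.88 and 12.3 TPM in the WT libraries (chr12:104236245-104241939, plus strand). The groups were far apart, the lowest Lef1KI library being again E. The difference was 2.94 ± 0.29 (adjusted p = 0.000502), and the ratio of the means was 8.87. The coding sequence of Serpina3f (1335 bases) is 87.4% identical to that of Serpina3g (744 bases), counted over the shorter. Serpina3f stood at 42.9, 26.6, 64, 40.8 and 18 TPM in Lef1KI and 4.75, 5.9, 5.25 and 10.4 TPM in WT (chr12:104214544-104221129, plus strand). The libraries did not overlap, and the difference was 2.31 ± 0.34 (adjusted p = 0.0025).

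Serpina3m, which shares most with Serpina3k (not analysed here), stood at 192, 96.9, 119.6, 168 and 39.8 TPM in Lef1KI and 19.6, 27.1, 34.8 and 38.2 TPM in WT (chr12:104338486-104394257, plus strand). Lef1KI E lay only just above WT D. The difference was 1.87 ± 0.40 (adjusted p = 0.0164), and the call was lost without WT B, where it was 1.83 (adjusted p = 0.0506). Serpina3c was low everywhere, at 3.57, 3.07, 9.36, 6.99 and 1.77 TPM in Lef1KI and 0.46, 0.43, 0.33 and 0.33 TPM in WT (chr12:104146382-104153870, minus strand). All WT libraries were below 1 TPM and no Lef1KI library was. The difference was 1.94 ± 0.33 (adjusted p = 0.00508) and the ratio of means 12.8, from WT levels near 0.

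Serpina3h, the pseudogene, stood at 9.98, 9.65, 9.32, 12.3 and 5.21 TPM in Lef1KI and 2.83, 1.85, 1.91 and 1.98 TPM in WT (chr12:104247905-104253669, plus strand). The groups did not overlap, and the difference was 1.68 ± 0.22 (adjusted p = 0.00142). Serpina3i differed least, at 22.8, 17.2, 22.3, 27.2 and 10.1 TPM in Lef1KI and 7.86, 9.24, 9.5 and 11.1 TPM in WT (chr12:104263122-104269372, plus strand). It is the only Serpina3 gene whose groups overlapped, since Lef1KI E lay below WT D. The difference was 0.94 ± 0.25 (adjusted p = 0.0435), and this call is fragile: of the 9 fits that leave out 1 library it passed in 1, without Lef1KI E (1.15), and in the others the difference was 0.82 to 1.02. It was also lost under median centring (0.78), trimmed-mean scaling (0.79) and a pseudocount of 5 (0.75).

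**Figure D2:**
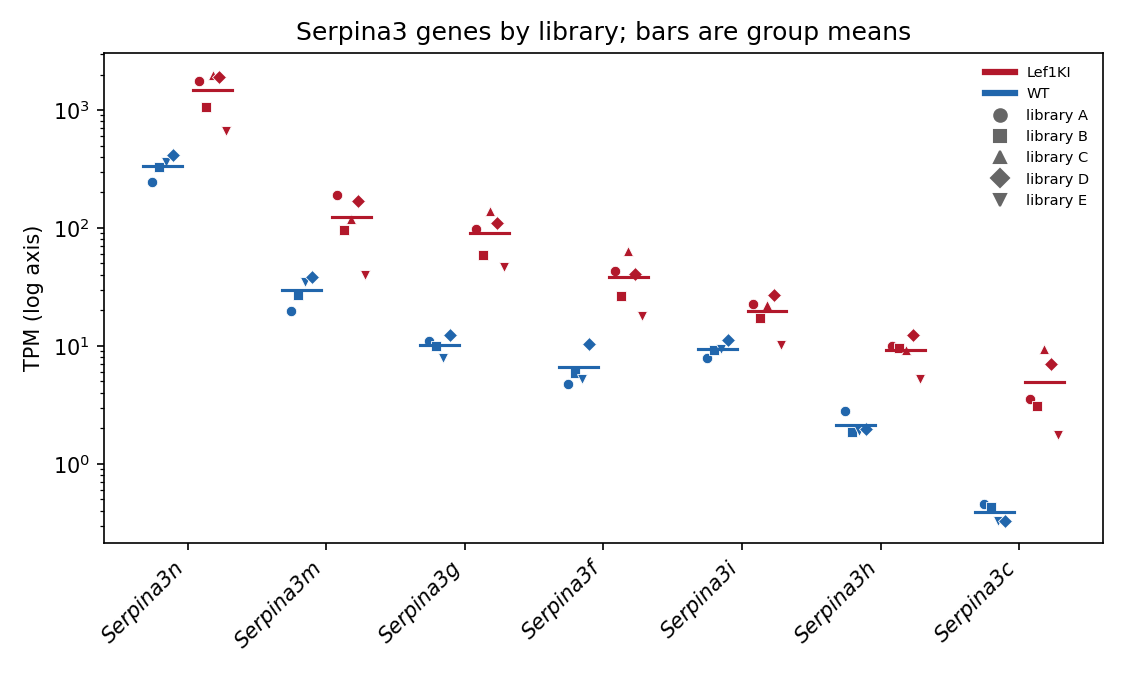
TPM of each Serpina3 gene in each library on a logarithmic axis, with 1 point per library and the groups side by side. The Lef1KI points of Serpina3n run from 670 to 1970.5 TPM above WT points from 243 to 419, and Serpina3i is the gene whose groups touch.

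The 7 genes summed to 2126, 1263, 2335, 2287 and 791 TPM in the Lef1KI libraries and to 290.0, 381, 424 and 494 TPM in the WT libraries, a ratio of means of 4.43. Dividing reads differently among the 7 would still alter this sum, since TPM corrects for transcript length and their lengths differ. Windows shared with genes outside the 7, such as Serpina3k, bear on the sum too. Its make-up was similar in both groups for the main gene: Serpina3n made up 82.6% to 84.6% of it in Lef1KI and 84.0% to 85.9% in WT libraries. The minor genes shifted within it. The share of Serpina3g was 4.64% to 6.01% in Lef1KI and 1.86% to 3.78% in WT libraries, without overlap. The share of Serpina3i went the other way, from 2.24% to 2.71% in WT to 0.954% to 1.36% in Lef1KI libraries. Serpina3c, a trace of the sum, had a larger share in Lef1KI (0.168% to 0.401%) than in WT libraries (0.067% to 0.159%). These shares were read after the levels and carry no test, and the reads these paralogs share bear on them.

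Stromal marker genes moved with the clade A serpins. Of 16 fibroblast and stromal markers 15 had a row and 14 rose (Thy1 is in the table only through Lef1KI), where 6.73% of all genes rose. None of these markers was at 0 in all WT libraries. Their summed level was 944, 646, 1346, 1111 and 469.7 TPM in the Lef1KI libraries and 113, 161, 178 and 213 TPM in the WT libraries. The order of the Lef1KI libraries from highest to lowest, C, D, A, B, E, was the same for the stromal sum, the Serpina3 sum, Serpina3n, Serpina3g and Serpina3c. It was C, A, D, B, E for Serpina3f, A, D, C, B, E for Serpina3m, D, A, B, C, E for Serpina3h and D, A, C, B, E for Serpina3i. Serpina3n makes up most of the Serpina3 sum, and without it the order of the sum was A, D, C, B, E. In the WT libraries both sums and Serpina3n had the order D, E, B, A, while Serpina3g had D, A, B, E and Serpina3c the reverse, A, B, E, D. Divided by the stromal sum of its own library, the Serpina3 sum was 1.69 to 2.25 in Lef1KI and 2.31 to 2.57 in WT libraries, so in relation to these markers it was lower in every Lef1KI library. The same ratio for Serpina3g was 0.0911 to 0.105 in Lef1KI and 0.0443 to 0.0969 in WT libraries, which overlap. The 10 measured endothelial markers had sums of 46.9 to 134 TPM in Lef1KI and 21.9 to 33.3 TPM in WT libraries, and 7 passed as higher. Of these 7, 5 are in the table only through Lef1KI, where they are high, so their tests do not support a rise. The part of endothelial cells in the results was not tested. Of 10 leukocyte markers only 4 had a row and 2 of those passed as higher, both in the table only through Lef1KI, with overlapping sums of 58.3 to 244 and 111 to 259 TPM; Ptprc, Csf1r and Cd74 were among those without a row. In such bulk libraries more cells of a type and more RNA per cell cannot be told apart.

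**Figure D3:**
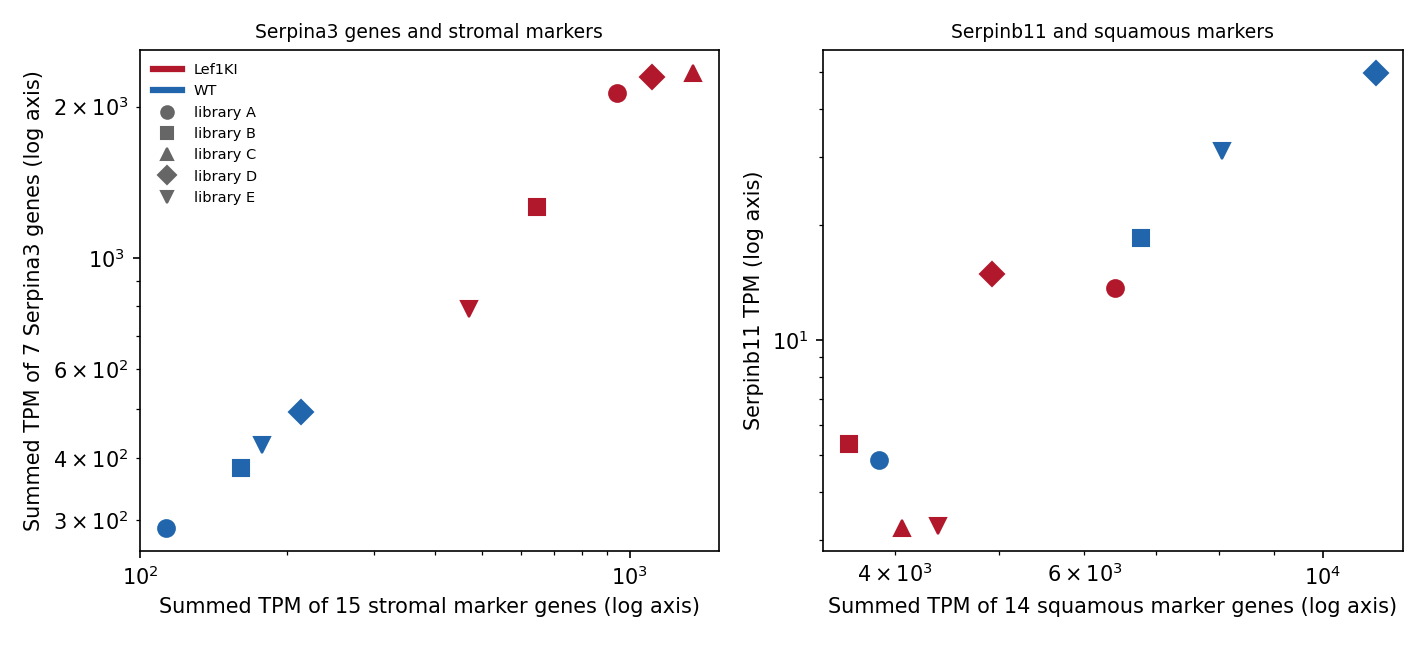
Left, the summed TPM of the 7 Serpina3 genes against the summed TPM of 15 stromal markers; right, Serpinb11 against the summed TPM of 14 squamous markers, with 1 point per library on logarithmic axes. On the left the Lef1KI libraries form the upper right group and run in one order on both axes; on the right the groups overlap.

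Of the 5 serpins outside clades A and B, Serping1 and Serpinf1 rose and the other 3 did not pass the test. Serping1 encodes C1 inhibitor, which stops the first complement proteases and plasma kallikrein. It stood at 350.4, 221, 526, 379.8 and 158 TPM in the Lef1KI libraries and at 44.3, 37.9, 47.8 and 66 TPM in the WT libraries (chr2:84765387-84775444, minus strand). Every Lef1KI library was far above every WT library, and the order of the Lef1KI libraries was again C, D, A, B, E. The difference was 2.62 ± 0.31 (adjusted p = 0.000939) and the ratio of means 6.68. Per unit of the stromal sum it was 0.337 to 0.391 in Lef1KI and 0.235 to 0.392 in WT libraries, which overlap.

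C1s1 and C1ra, complement proteases that C1 inhibitor controls, rose too. In the list of complement, granzyme and leukocyte serine proteases, which also holds genes that C1 inhibitor does not act on, 7 of 25 genes had a row and 6 rose, where 6.73% of all genes rose. The median difference was 1.81 against 0.14 for all genes. The summed level of the list had the library orders of the stromal sum in both groups, and per unit of that sum it was 0.227 to 0.263 in Lef1KI and 0.237 to 0.281 in WT libraries, which overlap. C1s1, the complement protease C1s, stood at 102, 69.8, 148, 112 and 50.7 TPM in Lef1KI and 11.7, 17.6, 19.9 and 21.7 TPM in WT, a difference of 2.32 ± 0.29 (adjusted p = 0.0012). C1ra, its activator C1r, stood at 84.3, 49.2, 90.7, 76.8 and 30.5 TPM in Lef1KI and 7.6, 14.3, 14.1 and 14.6 TPM in WT, a difference of 2.24 ± 0.32 (adjusted p = 0.00221). For both, no library of one group reached the other group. Prtn3, the neutrophil protease proteinase 3, was listed at 0 in all 4 WT libraries and at 1.25, 0.64, 0.63, 0.88 and 1.16 TPM in the Lef1KI libraries. It could enter the filtered table only through Lef1KI, so no test is given for it, and it is 1 of the 6. The granzymes, Elane and Ctsg had no row, nor did the plasma kallikrein gene Klkb1.

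Serpinf1 encodes PEDF, a secreted serpin that inhibits no protease and is known for blocking vessel growth. Its level was 70.8, 40.5, 94.1, 73.9 and 41.3 TPM in Lef1KI and 12.7, 9.78, 12.7 and 14.4 TPM in WT libraries (chr11:75409769-75422701, minus strand). The groups were well apart, with Lef1KI B and E the lowest of their group. The difference was 2.22 ± 0.25 (adjusted p = 0.000776). Serpinh1, the collagen chaperone HSP47, also a serpin without inhibitory activity, had the highest mean of these 5 genes. It stood at 458, 474, 538, 500.1 and 325 TPM in Lef1KI and 336, 309, 359 and 270.5 TPM in WT. Only Lef1KI E overlapped the WT libraries. The difference of 0.51 ± 0.15 did not pass (adjusted p = 0.0637), and without Lef1KI E it did, at 0.63 (adjusted p = 0.0070).

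Serpine2, protease nexin-1, a cell-surface inhibitor of thrombin and urokinase, was abundant, at 264, 209, 188, 214 and 135 TPM in Lef1KI and 289.8, 277, 249 and 195 TPM in WT. Its groups overlapped, and the difference was -0.34 ± 0.19 (interval -0.75 to 0.07, adjusted p = 0.294).

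Proteases and receptors of the plasminogen and clotting systems moved in both directions. In the list of plasminogen, clotting and pericellular serine proteases with their receptors, 31 of 47 genes had a row, 4 rose and 7 fell, where 6.73% of all genes rose and 1.24% fell. The median difference was -0.18, and under median centring or trimmed-mean scaling 2 rose and 8 fell. With a library left out, 1 to 5 rose and 2 to 10 fell, the fewest without WT E (1 and 2) and the most that fell without WT A (10). The counts were also low without Lef1KI C (3 and 3), Lef1KI D (2 and 4), WT B or WT D (2 and 3 each). The gene that fell with the smallest adjusted p was Klk7, a kallikrein that cleaves the junctions of shedding keratinocytes, at 4.74, 1.25, 0.7, 5.94 and 1.71 TPM in Lef1KI and 12.7, 25.5, 14.6 and 19.3 TPM in WT (difference -2.46 ± 0.41, adjusted p = 0.00452). Prss22, an airway tryptase, followed at -1.86 ± 0.35 (adjusted p = 0.00901). Klk7, Prss22 and Klk6, 3 of the 7 that fell, met the filter only through WT, where they are high, so their tests do not support a fall. Plat, tissue plasminogen activator, fell too, from 20.9, 10.7, 16.4 and 12.1 TPM in WT to 5.34, 7.02, 9.58, 5.41 and 6.63 TPM in Lef1KI libraries. Its difference was -1.02 ± 0.22 (adjusted p = 0.018), and the call was lost without WT E (-0.97, adjusted p = 0.0642). Among those that rose, F2rl1, the protease-activated receptor PAR2, differed by 1.16 ± 0.22 (adjusted p = 0.00895). Lrp1, the endocytic receptor that clears serpin-protease complexes, differed by 1.17 ± 0.26 (adjusted p = 0.0196), a call lost without WT A (1.08) or WT E (1.18). Pros1, protein S, a cofactor of tissue factor pathway inhibitor, differed by 0.93 ± 0.21 (adjusted p = 0.0232). That call was lost without Lef1KI D (0.83), WT B (0.94), WT E (0.90) or WT D (0.88), and under median centring (0.77) and trimmed-mean scaling (0.78).

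None of the 12 clade B serpins passed limma's test. Their differences were positive for 5 and negative for 7, with a median of -0.16, and 3 (25%) had an unadjusted p under 0.05 (Serpinb2, Serpinb8 and Serpinb11), where 23.8% of all genes did. The summed level was 616 to 1003 TPM in Lef1KI and 747 to 782 TPM in WT libraries. The genes lie in a cluster on chromosome 1 and another on chromosome 13, with 6 members each, and the median differences of the clusters were -0.19 and -0.09.

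Serpinb6a, an intracellular inhibitor of trypsin-like proteases and cathepsin G, had the highest mean of clade B. It stood at 165, 194, 248, 164 and 275 TPM in Lef1KI and 234, 255, 250.1 and 242 TPM in WT libraries. The WT libraries were close together and the Lef1KI libraries spread on both sides of them. The difference was -0.26 ± 0.16 (interval -0.61 to 0.09, adjusted p = 0.339). With its paralogs Serpinb6b and Serpinb6c it summed to 178 to 298 TPM in Lef1KI and 252 to 279 TPM in WT libraries. Serpinb6b had a mean of 14.9 against 21.9 TPM and Serpinb6c of 1.03 against 0.81 TPM, neither past the test. Serpinb1a, an inhibitor of neutrophil elastase, and its paralog Serpinb1b summed to 34.3 to 52.3 TPM in Lef1KI and 29.8 to 50.6 TPM in WT libraries.

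On chromosome 1, Serpinb5, or maspin, is a marker of basal and myoepithelial cells. It stood at 181, 160.1, 159.7, 140.1 and 184 TPM in Lef1KI and 217, 167, 167 and 141 TPM in WT libraries. The groups overlapped, and the interval of the log2 difference was -0.35 to 0.24. Serpinb2, PAI-2, a mostly intracellular urokinase inhibitor, had the largest positive difference of clade B. It stood at 68.8, 96.8, 188, 156 and 270.0 TPM in Lef1KI and 67.5, 61.7, 66.9 and 76.6 TPM in WT libraries (chr1:107511423-107535478, plus strand). The WT libraries were close together, and Lef1KI A lay among them. The difference of 1.03 ± 0.33 did not pass (adjusted p = 0.0871), and without Lef1KI A it did, at 1.28 (adjusted p = 0.0143). The order of the Lef1KI libraries for Serpinb2 was E, C, D, B, A, with E, the lowest library for the Serpina3 sum, at the top. Serpinb10, annotated as a polymorphic pseudogene, overlaps Serpinb2 on the same strand (chr1:107529003-107549271, plus strand). Its searched transcript shares 35 windows of 50 bases with another transcript of Serpinb2, so reads from the overlap cannot be told apart. Its mean was 135 TPM in Lef1KI and 128 TPM in WT (adjusted p = 0.883).

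Serpinb8 and Serpinb11 had the most negative differences. Serpinb8, an inhibitor of furin, stood at 36.8, 23, 20.5, 39.3 and 26.2 TPM in Lef1KI and 38.1, 45.5, 45.8 and 61.7 TPM in WT libraries. Lef1KI D, at 39.3 TPM, was the only Lef1KI library above the lowest WT library. The difference of -0.72 ± 0.21 did not pass (adjusted p = 0.0661). It passed under median centring (-0.88) and trimmed-mean scaling (-0.87), and without Lef1KI A (-0.81) or Lef1KI D (-0.83). Serpinb11 stood at 13.7, 5.35, 3.23, 14.9 and 3.26 TPM in Lef1KI and 4.85, 18.5, 31.2 and 49.9 TPM in WT libraries. WT A lay among the Lef1KI libraries and the other 3 WT libraries above them. The difference was -1.44 ± 0.62 (adjusted p = 0.193), and without WT A it passed at -2.05 (adjusted p = 0.0413). Serpinb9, the granzyme B inhibitor, and Serpinb7 had differences of -0.48 and -0.32, neither past the test.

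Squamous markers are given beside these genes. The 14 measured of 17 such markers summed to 3869, 6777, 8063 and 11208 TPM in WT A, B, E and D, and to 6405, 3627, 4062, 4919 and 4385 TPM in Lef1KI A to E. Of them 1 rose and 1 fell, where 6.73% of all genes rose and 1.24% fell. The gene that fell was Klk7, which is in the table only through WT, where it is high, so its test does not support a fall. Without WT A none rose and 5 fell. Under both scaling alternatives none rose and 1 fell. Across the WT libraries the order of the squamous sum, D, E, B, A, was also that of Serpinb8, Serpinb11, Slpi, Spint1 and Spink5. It is not particular to them: Serpina3n, Serpina3m, Serpina3i, the stromal sum and Cstf2t had it too, and Serpinb7 and Serpinb9 did not. In the Lef1KI libraries the order was A, D, E, C, B for the squamous sum and D, A, B, E, C for Serpinb11. The part of squamous cells in these values was not tested.

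The 3 cystatins did not pass. Cst3, cystatin C, the main secreted inhibitor of cathepsins, stood at 752, 408, 652, 649.8 and 333 TPM in Lef1KI and 336, 374, 337 and 359.7 TPM in WT libraries. Lef1KI A to D were above every WT library, and E was below them all. The difference was 0.60 ± 0.22 (adjusted p = 0.132), and without Lef1KI E it passed at 0.77 (adjusted p = 0.0229). Cstb, the intracellular stefin B, stood at 538, 481, 374, 378 and 348 TPM in Lef1KI and 511, 537, 597 and 554 TPM in WT libraries. Only Lef1KI A reached into the WT range. The difference was -0.39 ± 0.14 (adjusted p = 0.115), and without Lef1KI A it passed at -0.48 (adjusted p = 0.0289). Cst6, an inhibitor of legumain and cathepsins in skin, stood at 5.89, 3.8, 3.49, 2.76 and 6.83 TPM in Lef1KI and 5.4, 6.66, 5.76 and 6.69 TPM in WT, a difference of -0.41 ± 0.22 (adjusted p = 0.287).

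Of their targets, 9 of 11 papain-family cathepsins and legumain had a row and 1 rose (11.1%, where 6.73% of all genes rose; 3 rose without Lef1KI E), with a median difference of 0.30 against 0.14 for all genes. This was Ctsk, the collagen-degrading cathepsin K, at 145, 86, 223, 191 and 81.8 TPM in Lef1KI and 19.1, 18.3, 30.5 and 37.9 TPM in WT libraries. No libraries overlapped, and the order of the Lef1KI libraries was C, D, A, B, E, as for the stromal sum. The difference was 2.36 ± 0.33 (adjusted p = 0.00195).

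Among the 4 WAP-domain genes none passed. Slpi, the secretory leukocyte protease inhibitor that shields airways from neutrophil elastase, had the highest mean. It stood at 436, 318, 351, 312 and 354 TPM in Lef1KI and 307, 463, 806 and 879.7 TPM in WT libraries. The Lef1KI libraries were close together, and WT ran from just below them to well above. The difference was -0.68 ± 0.27 (adjusted p = 0.167), and without WT A it passed at -0.97 (adjusted p = 0.0226). Wfdc2, also called HE4, was abundant and overlapped, with means of 236 TPM in Lef1KI and 252 TPM in WT libraries. Wfdc3 and Wfdc18 had means below 2 TPM in both groups, and Wfdc18 reached 5.29 TPM in Lef1KI D only.

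Of the 4 Kunitz genes, Tfpi rose, Tfpi2 passed the test under the limit given below, and both hepatocyte growth factor activator inhibitors did not pass. Tfpi, which shuts down the start of clotting, stood at 8.78, 7.67, 12.8, 10.3 and 9.03 TPM in Lef1KI and 4.02, 2.13, 4.15 and 3.81 TPM in WT libraries (chr2:84432855-84476775, minus strand). The groups did not overlap. The difference was 1.25 ± 0.20 (adjusted p = 0.0038) and the ratio of means 2.75. Tfpi2, a matrix-associated inhibitor of plasmin and trypsin, stood near the bottom of the scale, at 0.79, 0.66, 1.91, 0.8 and 1.15 TPM in Lef1KI and 0.28, 0, 0.23 and 0.23 TPM in WT libraries (chr6:3962595-3988919, minus strand). It was listed at 0 in WT B. Its mean was 3.11 SD in Lef1KI and 1.48 SD in WT libraries, so it is in the table only through the group where it is high and its test does not support a rise. The difference was 0.77 ± 0.16 (adjusted p = 0.0147), and the call was lost without WT B (0.70, adjusted p = 0.0551).

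Spint2, a membrane inhibitor of matriptase and other epithelial proteases, had the highest mean of the Kunitz genes. It stood at 215, 257, 242, 231 and 282 TPM in Lef1KI and 249, 239.5, 271 and 313 TPM in WT libraries. The groups overlapped, and the interval of the log2 difference was -0.38 to 0.13. Spint1, its relative HAI-1, had means of 33.1 ± 9.37 TPM (SD, n = 5) in Lef1KI and 60.5 ± 23.7 TPM (SD, n = 4) in WT libraries. The difference was -0.81 ± 0.27 (adjusted p = 0.101). It passed without WT A (-1.05, adjusted p = 0.0349) and under median centring (-0.97, adjusted p = 0.0463).

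Spink5, the Kazal inhibitor LEKTI that restrains the epidermal kallikreins, was the only Kazal gene in the table. It stood at 83.9, 64.9, 57.2, 211 and 46.7 TPM in Lef1KI and 44.7, 71.9, 118 and 138 TPM in WT libraries. The libraries of both groups spread widely and overlapped, with Lef1KI D the highest of all. The difference was -0.11 ± 0.44 with an interval of -1.07 to 0.86 (adjusted p = 0.901).

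Pi15, a secreted protein of the CAP family named for trypsin inhibition, rose. It stood at 14.8, 9.51, 28.6, 15.2 and 11.5 TPM in Lef1KI and 2.93, 3.77, 3.88 and 3.66 TPM in WT libraries (chr1:17601901-17630939, plus strand). The groups did not overlap, and Lef1KI C was the highest library. The difference was 1.80 ± 0.27 (adjusted p = 0.0027) and the ratio of means 4.47. Per unit of the stromal sum, Pi15 was 0.0137 to 0.0244 in Lef1KI and 0.0172 to 0.0259 in WT libraries. The 4 cleavage stimulation factor genes, which are no inhibitors, did not pass, with differences from 0.00 (Cstf1) to 0.56 (Cstf3). Without Lef1KI A, Cstf3 passed at 0.80 (adjusted p = 0.0370).

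**Figure D4:**
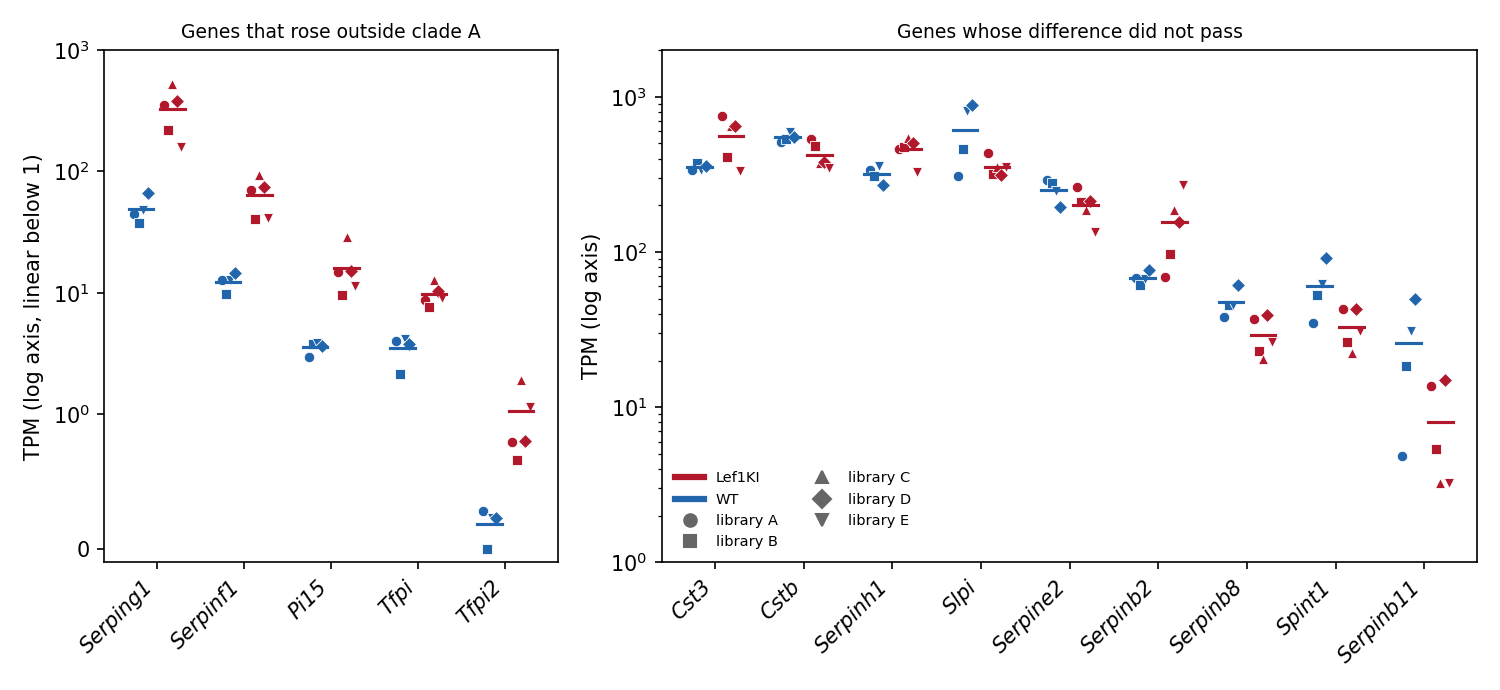
TPM in each library, 1 point per library with the groups side by side, for the 5 inhibitors outside clade A that passed the test as higher (left, logarithmic above 1 TPM and linear below) and for 9 others that did not pass the test (right, logarithmic). On the left the groups are apart for all 5 genes; on the right they overlap or lie close, and Serpinb11 covers 3.23 to 49.9 TPM.

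Inhibitors outside the name pattern give a further view. Of 32 such genes listed, 19 had a row, 6 rose and 1 fell, where 6.73% of all genes rose and 1.24% fell, with a median difference of 0.22 against 0.14. Kng2 and Kng1, the kininogens, which are cystatin-type inhibitors and bradykinin precursors, differed by 0.94 ± 0.15 (adjusted p = 0.00421) and 0.36 ± 0.08 (adjusted p = 0.0218). Both were low, with Lef1KI means of 1.55 and 0.33 TPM, and as close paralogs they may share reads. In WT their means were 2.61 and 0.667 SD, so both are in the table only through Lef1KI, where they are high, and their tests do not support a rise. The call of Kng1 was lost without WT A (0.34), WT E (0.35) or WT D (0.34), and under median centring (0.20), trimmed-mean scaling (0.21), a pseudocount of 5 (0.081) and no intensity trend (adjusted p = 0.0681). Fetub, fetuin-B, an inhibitor of astacin proteases, differed by 1.38 ± 0.24 (adjusted p = 0.00629). Papln, papilin, a matrix protein with Kunitz domains, fell by 0.70 (adjusted p = 0.0497), and with a library left out it passed only without Lef1KI A (differences of -0.79 to -0.59) and not with a pseudocount of 5 (-0.50). The count of changed genes in this list was 4 without Lef1KI B, Lef1KI D or WT B and 3 without Lef1KI C, WT A, WT E or WT D. Under median centring 3 rose and 1 fell, and under trimmed-mean scaling 2 rose and 1 fell.

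The 7 Serpina3 genes all rose, so their start regions were compared where a window was found. RefSeq promoter windows (GRCm38.p6, from 250 bases before to 50 after the start) were found for 28 of the 37 inhibitors and for 8 of the 12 that rose. No window was found for Serpina3m or Serpina3h. The windows of Serpina3c and Serpina3n were 91.7% identical, and the next closest pair, Serpina3f and Serpina3i, reached 74.7%. A related element of 51 bases stood in the windows of 5 Serpina3 genes and is shown because a change inside it divides them. Capitals mark a match to TTCNNNGAA, the core that STAT factors are known to bind.
Serpina3c (chr12:104153962-104154012, minus strand): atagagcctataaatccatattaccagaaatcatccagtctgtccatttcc
Serpina3f (chr12:104214403-104214453, plus strand): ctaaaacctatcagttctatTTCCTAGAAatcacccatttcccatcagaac
Serpina3g (chr12:104236094-104236144, plus strand): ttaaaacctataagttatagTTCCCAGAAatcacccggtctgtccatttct
Serpina3i (chr12:104263000-104263050, plus strand): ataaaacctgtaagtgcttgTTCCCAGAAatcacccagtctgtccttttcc
Serpina3n (chr12:104406565-104406615, plus strand): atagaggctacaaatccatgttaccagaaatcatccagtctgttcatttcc
The core was present in Serpina3f, Serpina3g and Serpina3i and not matched in Serpina3c and Serpina3n. The element was located by searching for GAAATCA, so the GAA end of the core was fixed by that search. Genes with and without the match both rose, and a match is a description of letters, not of binding. Read on both strands, TTCNNNGAA, which is its own reverse complement, was in 8.29% of all 32817 mouse windows and in 7 of the 35 windows of the inhibitors, several of which are the related Serpina3 windows. The LEF/TCF core, searched as CTTTGA or CTTTGT on both strands, was in 31.2% of all windows, in 23.4% of those of genes in the table and in 14 of the 35 inhibitor windows (40.0%). Among these it was in 41.7% of the 12 windows of members that rose and 39.1% of the 23 windows of those that did not pass. A gene can have several windows, which can overlap and were each counted, as for Tfpi2 and Serpinb2, so these are shares of windows and not of genes.

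Across the 12 members that rose, single libraries stood in similar places. The lowest Lef1KI library was E for 8 genes and B for 4. The highest was C for 9, D for 2 and A for 1. In WT, library D was the highest for 7 of the 12. The sum of all 37 inhibitors was 4259 to 6521 TPM in Lef1KI and 3552 to 4415 TPM in WT libraries. Without the Serpina3 genes it was 3446 to 4186 and 3262 to 3921 TPM.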

How the data were processed

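Stranded TruSeq mRNA libraries of sorted cells, 5 Lef1KI and 4 WT, were analysed. The authors deposited log2(TPM + 1) values; per the submitters' processing notes they used RSEM and the mm10 build. Version, aligner, annotation and read length were not given in the sources used here. From the values, the deposited genes had a mean of at least 3 SD in a group (lowest 3.002), which favours genes with little spread; 5 members (Serpinb6c, Serpinb7, Wfdc3, Wfdc18 and Tfpi2) were under 3 SD in the other group. A gene that met it only through the group where it is high was selected in part for that difference, so its test does not support one. Of the members that passed the test, Tfpi2 is such a gene. Serpinb6c, Serpinb7, Wfdc3 and Wfdc18 did not pass. Each library summed to 99.6% to 99.84% of the TPM total. TPM keeps no read counts, so depth is unknown and errors come from the spread between libraries. Each library is 1 pool of mice, so p-values measure the spread between pools. Columns were put in groups by name.

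Groups were compared with limma 3.58.1 (R 4.3.3), with an intensity trend and all 9 libraries, two-sided, with Benjamini-Hochberg adjustment over 13336 genes. Intervals are 95% intervals of that fit. Python 3.11, pandas 2.3.3, Biopython 1.88 and matplotlib 3.10.9 were used for the rest. The test was checked on simulated data. Positions are GENCODE M21 on mm10, 1-based. Identities come from aligned coding sequences of that annotation, translated for protein, and are shares of the shorter sequence. Alternatives were pseudocounts 0.1 and 5, median centring, trimmed-mean scaling (30% trimmed), a minimum of 1 TPM, no trend, a robust prior, each library left out, and a block on column letters. The values of 1 serpin that did not pass the test are not reported here, though it is in the counts. Members and lists were chosen with earlier results of these data known. Values per library are given for members that passed, the highest of each class, and classes of up to 3; of other lists, up to 3 genes per direction with the smallest adjusted p are named. Serpinb2, Serpinb8, Serpinb11 and the genes in the right panel of other members were added after their values were seen. Values per library of Serpinb5 are given too, outside these rules.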

Additional observations from a re-analysis of the deposited data

Results flagged for a closer look

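In 82 groups of 4 or 5 libraries, 1 group for each member and genotype, a single library stood apart by Dixon's criterion in 3, where chance gives about 1 in 20. Serpina3h stood at 2.83 TPM in WT A and at 1.85 to 1.98 TPM in the other 3 WT libraries. Tfpi stood at 2.13 TPM in WT B and at 3.81 to 4.15 TPM in the others. Tfpi2 was listed at 0 in WT B and at 0.23 to 0.28 TPM in the others. The last 2 share a library.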

How the results depend on the processing

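Pairing by the labels' replicate numbers could not be fitted, since the columns carry letters. The letters A, B, D and E occur in both groups, and a replicate block on them was added after seeing the data, over 8 libraries. Same-letter deviations from the group means correlated at -0.265 to 0.260 over 4 pairs, and those with different letters at -0.220 to 0.231. With so few pairs this cannot tell whether libraries of the same letter were paired. With this block 10 members changed, 486 of all genes (439 higher, 47 lower) and 9 genes of the 4 lists (7 higher, 2 lower), and Serpina3m (1.83), Serpina3i (0.89), F2rl1 (1.12), Lrp1 (0.98), Pros1 (0.80), Plat (-1.14), Kng1 (0.32) and Papln (-0.60) did not pass; Wfdc18 was at 0.12 and Spink5 at 0.0094. Of the 12 members that rose, Serpina3g, Serpina3f, Serpina3n, Serpina3c, Serpina3h, Serping1, Serpinf1, Tfpi and Pi15 passed under every alternative run. The count of changed members was 13 under median centring (11 higher, 2 lower), 12 under trimmed-mean scaling (11 higher, 1 lower) and 11 with a pseudocount of 5, and it ranged from 9 (without WT B) to 15 (without Lef1KI A) with a library left out. Over all genes, 1063 changed (898 higher, 165 lower). This became 937 under median centring (605 higher, 332 lower) and 918 under trimmed-mean scaling (612 higher, 306 lower), which move the median of all genes from 0.14 to -0.018 and -0.0076. With a library left out it ranged from 628 (without WT E) to 1686 (without Lef1KI A), and was 643 without WT B. The count over the 4 lists of proteases and other inhibitors was 25 (17 higher, 8 lower), 21 under median centring (12 and 9) and 20 under trimmed-mean scaling (11 and 9). With a library left out it ranged from 13 (without WT E) to 25, and was 16 without Lef1KI C and 15 without WT B or WT D.

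Small differences that did not pass changed sign. Under median centring and trimmed-mean scaling Serpinb1a was at -0.090 and -0.080, Serpinb10 at -0.11 and -0.10, and Cstf1 at -0.16 and -0.14. With a pseudocount of 5 Wfdc18 was at 0.058. With a library left out the ranges were -0.046 to 0.23 for Serpinb1a, -0.033 to 0.19 for Serpinb10, -0.15 to 0.056 for Serpinb5, -0.45 to 0.15 for Wfdc18, -0.41 to 0.075 for Wfdc2, -0.46 to 0.12 for Spink5 and -0.062 to 0.054 for Cstf1. The cause was not tested. Lef1 kept its call under every alternative. Count-based tests were not run, since the values are TPM. Depth is unknown, so for genes near 0 TPM such as Serpina3c and Tfpi2 counting error cannot be given.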
